A study of Mus musculus with 2 samples.

Results

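The cells described here are fibroblasts of mouse dorsal skin that carry transcripts of Gdf10, Vtn or Esm1. The IMQ group is 1 library from wild type C57BL/6 mice, described as female and 2 months old, whose skin received topical imiquimod every day for 5 days. The Ctrl group is 1 library from control mice of the same genotype, strain, sex and age. Imiquimod is a Toll-like receptor agonist that brings on psoriasis-like inflammation when it is put on mouse skin. How many animals stand behind each library is not given in the sources used here, so each group counts as 1 sample and no p-value is given. Intervals are exact and at 95%, and they cover counting error only.

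A cell was chosen when it had at least 200 detected genes, at most 10% mitochondrial UMIs (unique molecular identifiers, each standing for 1 captured transcript), at least 0.5% of its UMIs on Col1a1, Col1a2, Col3a1 and Dcn together, no Ptprc UMI and less than 0.2% of its UMIs on Krt5 and Krt14. It also needed at least 2 UMIs over Gdf10, Vtn and Esm1, fewer than 3 UMIs of Pi16, and fewer than 3 UMIs over Col11a1, Lrrc15 and Acan. This gave 282 cells of 9414 barcodes in the IMQ library and 248 cells of 10857 in the Ctrl library, 530 of 20271 in all. They are called the gated fibroblasts below. The other fibroblasts are the 3399 IMQ cells and 6815 Ctrl cells that met the collagen, Ptprc and keratin limits but not the rest. The cells were thus chosen by their measured levels of these genes, whose values are given as a description and support nothing.

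Gdf10 encodes a secreted factor of the bone morphogenetic protein family, Vtn encodes vitronectin, a plasma and matrix adhesion protein, and Esm1 encodes endocan, a proteoglycan best known from activated endothelium. Fibroblasts with Gdf10, F3 (tissue factor, also called CD142), Clec11a and Fmo2 are known from mouse fat depots, where F3-bearing stromal cells have been described as restraining the formation of adipocytes, and fibroblasts around vessels are known as sources of Cxcl12 and complement. The working name of the gated cells joined a perivascular place with the lipid genes Car3, Cfd and Fabp4. Position in the tissue was not measured, and the lipid genes went against the name, as the values below show, so the cells are called by their rule. On mouse build GRCm38 (mm10), Gdf10 lies on chromosome 14 at 33923587 to 33937983, Vtn on chromosome 11 at 78499091 to 78502324 and Esm1 on chromosome 13 at 113209659 to 113218098, all on the plus strand.

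Gdf10 carried most of the gate. In the IMQ library 149 gated fibroblasts had Gdf10 as the only gate gene, 67 had Gdf10 and Vtn, 33 had Vtn alone, 30 had Gdf10 and Esm1 and 3 had Esm1 alone. In the Ctrl library 176 had Gdf10 alone, 47 had Gdf10 and Vtn and 25 had Vtn alone. The IMQ cells held 101 Esm1 UMIs in 33 cells, whereas no gated fibroblast of the Ctrl library, whose cells are shallower, had an Esm1 UMI. With the UMIs of all gated fibroblasts of a library summed and scaled to CPM, Gdf10 stood at 437 CPM in the IMQ library and 367 CPM in the Ctrl library, and Vtn at 91.3 and 97.5 CPM in the same order. The gate thus drew cells with Gdf10 in both libraries and an Esm1 group from the IMQ library alone.

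**Figure D1:**
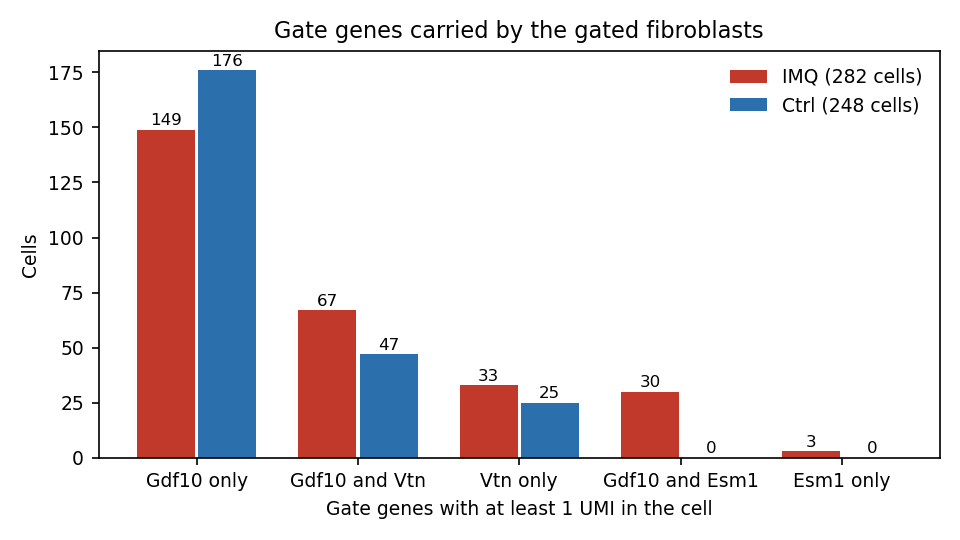
Number of gated fibroblasts (y axis) by the gate genes with at least 1 UMI in the cell (x axis), with IMQ cells in red and Ctrl cells in blue. Gdf10 alone is the largest class in both libraries, with 149 IMQ and 176 Ctrl cells, and the Esm1 classes hold 33 IMQ cells and no Ctrl cell.

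The gated fibroblasts made up 7.66% of all fibroblast-gated cells in the IMQ library (282 of 3681, 6.82 to 8.57%) and 3.51% in the Ctrl library (248 of 7063, 3.09 to 3.97%), a ratio of 2.18 (1.83 to 2.60). Of all cells that passed the gene and mitochondrial limits they were 3.32% in IMQ and 2.41% in Ctrl, a ratio of 1.38 (1.16 to 1.64). The denominators therefore give different sizes for the same cells. Depth bears on a gate of 2 UMIs: the median gated fibroblast had 10724 UMIs in the IMQ library and 6024 in the Ctrl library. With every cell thinned to 5000 UMIs, the shares of fibroblast-gated cells were 5.30% in IMQ and 1.85% in Ctrl, a ratio of 2.86 (2.24 to 3.67). Thinning left out 2485 shallower IMQ cells, 45 of them gated, and 2650 shallower Ctrl cells, 97 of them gated. The Pi16 limit took out 161 of the 450 IMQ cells that met the gate and 205 of the 455 Ctrl cells. The shares come from 1 library each, so the spread between animals is unknown.

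At the edge of the rule, 68 IMQ cells and 108 Ctrl cells had exactly 2 gate UMIs, while 127 IMQ cells and 244 Ctrl cells met every other limit with 1 gate UMI. Cxcl14, a chemokine of resting skin, stood at 2228 CPM just inside and 2316 CPM just outside in IMQ, and at 636 and 228 CPM in Ctrl. Inmt, an indole and thioether methyltransferase, stood at 280 CPM inside and 165 CPM outside in IMQ, and at 340 and 84.1 CPM in Ctrl. Cells with no gate UMI had 380 CPM of Cxcl14 and 25.1 CPM of Inmt in IMQ, and 36.7 and 14.1 CPM in Ctrl. Cells with 1 gate UMI thus stood well above those with 0 for both genes in both libraries, and for Cxcl14 in IMQ at the level of the cells just inside.

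**Figure D2:**
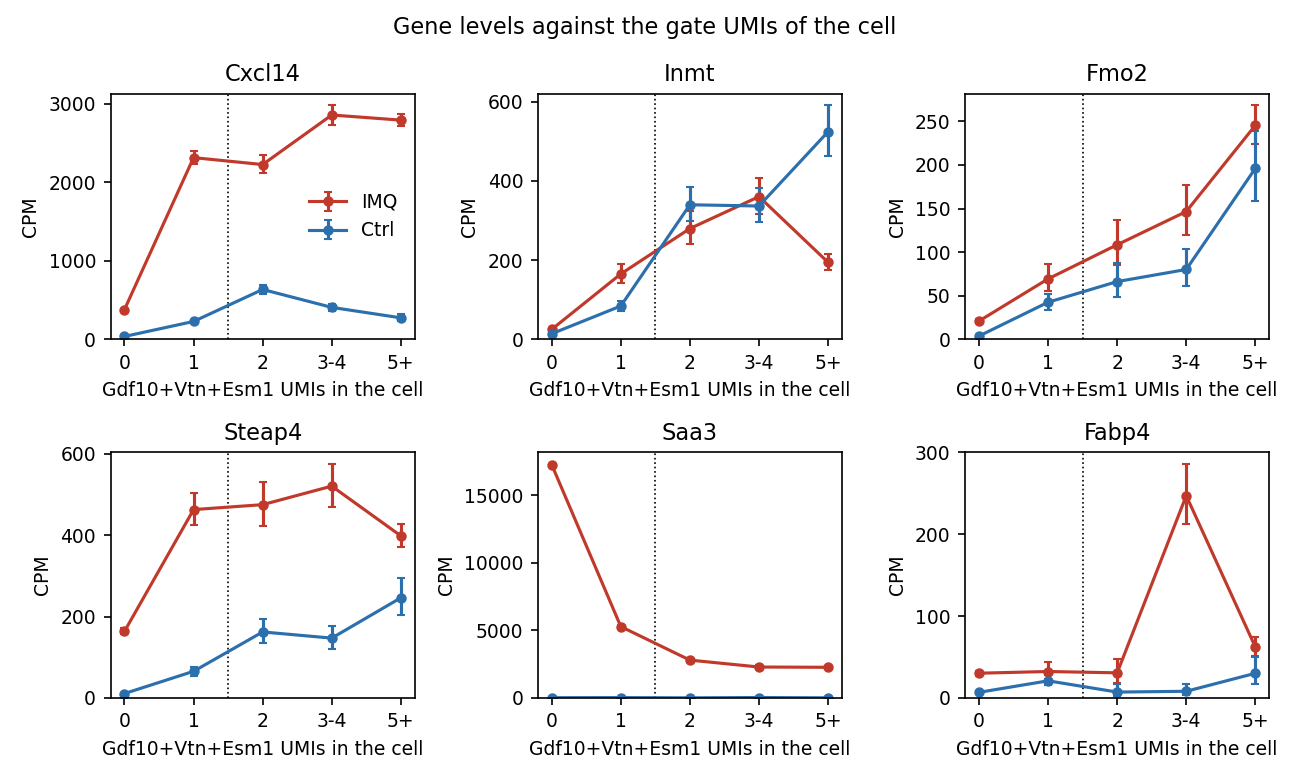
CPM (y axes, from 0) of 6 genes against the number of Gdf10, Vtn and Esm1 UMIs in a cell (x axes) among fibroblasts under the Pi16 and Col11a1, Lrrc15 and Acan limits, IMQ in red and Ctrl in blue, with exact Poisson intervals as bars and the rule's limit as a dotted line. Cxcl14, Inmt, Fmo2 and Steap4 are higher at 2 gate UMIs than at 0 in both libraries, and Saa3 is highest in IMQ cells with 0 gate UMIs.

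The lipid genes named with these cells were almost absent from them. Car3, carbonic anhydrase 3 and abundant in adipocytes, had 7 UMIs in 2 of 282 IMQ cells and 4 UMIs in 1 of 248 Ctrl cells. A single IMQ cell held 6 of the 7 UMIs, and the only positive Ctrl cell held all 4. The levels were 2.13 CPM in IMQ and 2.04 CPM in Ctrl, a log2 ratio of 0.06, and 0.31 CPM and 0 CPM without those cells. Cfd, the adipokine adipsin, had no UMI in IMQ gated fibroblasts, which allows up to 0.91 CPM, and 1 UMI in Ctrl gated fibroblasts, so no ratio is given. Adipoq, Plin1, Cidec, Retn, Lep and Pck1, which mark mature adipocytes, had no UMI in the gated fibroblasts of either library. The other two genes of that list, Plin4 and Cidea, had 2 UMIs and 1 UMI in IMQ and 6 UMIs and 0 in Ctrl. Pparg, the master regulator of adipocyte formation, stood at 3.04 CPM in IMQ and 3.06 CPM in Ctrl, from 10 and 6 UMIs.

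Most Car3, Cfd and Adipoq transcripts of each library lay in 1 or 2 cells that were not gated. In the IMQ library 1 cell held 728 of 898 Car3 UMIs, 969 of 1014 Cfd UMIs and 99 of 107 Adipoq UMIs, with 0.05% of its UMIs on the collagens and Dcn. In the Ctrl library 1 cell held 751 of 760 Cfd UMIs and 42 of 65 Adipoq UMIs, and its collagen share was 10.7%. A pair of Ctrl cells held 417 and 372 of 838 Car3 UMIs. Estimated free RNA would give 0.16 CPM of Car3 and 0.18 CPM of Cfd in IMQ gated fibroblasts, and 0.45 and 0.41 CPM in Ctrl.

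Fabp4, a fatty acid binding protein of adipocytes and capillary endothelium, was the exception among the named lipid genes. It had 316 UMIs in 39 IMQ cells (13.8%) and 26 UMIs in 7 Ctrl cells (2.82%), or 96.2 CPM (85.9 to 107) in IMQ and 13.3 CPM (8.67 to 19.5) in Ctrl. The ratio was 7.24 (4.85 to 11.3). Of these UMIs, 147 came from 1 IMQ cell and 13 from 1 Ctrl cell. Without these cells Fabp4 stood at 51.8 CPM in IMQ and 6.67 CPM in Ctrl. The next highest IMQ cells held 56, 36 and 15 UMIs. Most of the IMQ transcripts lay in the 33 cells with Vtn and no Gdf10, at 619 CPM, where 1 cell held 147 of 265 UMIs (55.5%). Fabp4 stood at 22.7 CPM in the 67 IMQ cells with Gdf10 and Vtn and at 15.6 CPM in the 149 IMQ cells with Gdf10 alone. With the gate set on Gdf10 alone, the log2 ratio of Fabp4 was 0.26 (-0.54 to 1.10), against 2.86 under the full gate. In keratinocytes, which should lack Fabp4, 1.78% of IMQ cells and 0.99% of Ctrl cells had a UMI at median depths of 34101 and 18880 UMIs.

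**Figure D3:**
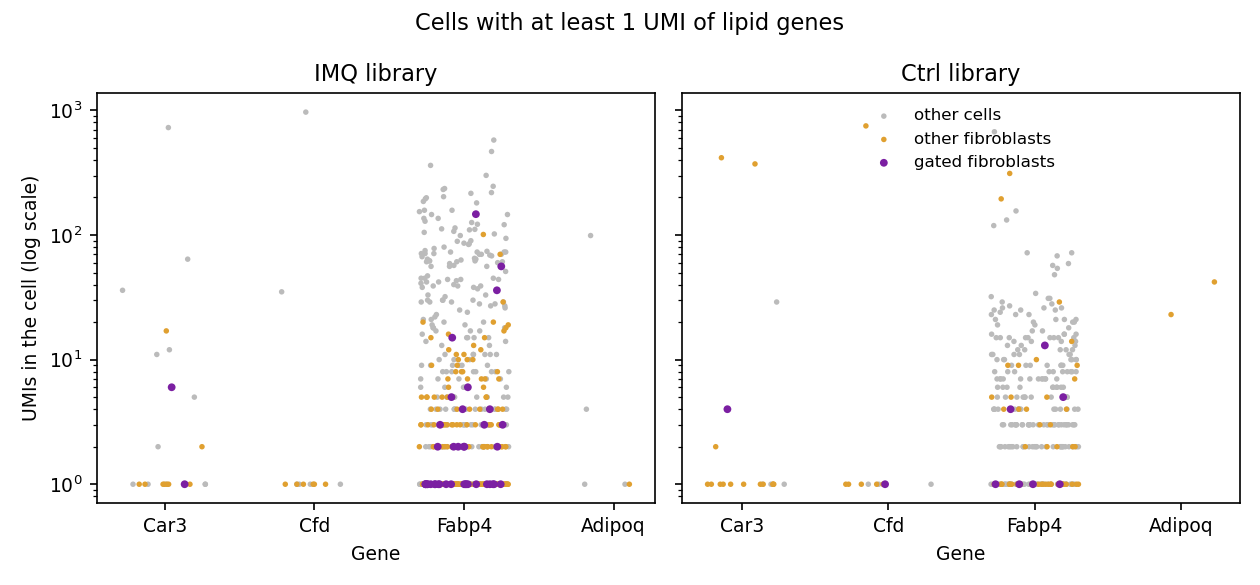
UMIs per cell on a log axis (y) for every cell with at least 1 UMI of Car3, Cfd, Fabp4 or Adipoq (x), IMQ library left and Ctrl library right, with gated fibroblasts in purple, other fibroblasts in orange and all other cells in grey; sideways scatter carries no value. The highest Car3, Cfd and Adipoq cells, up to 969 UMIs of Cfd in the IMQ library, are not gated fibroblasts. Fabp4 has a UMI in 39 gated IMQ cells and 7 gated Ctrl cells. Of the gated IMQ cells, 22 have 1 UMI, and the highest have 147, 56, 36 and 15.

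Of the wider lipid list, 32 of 45 genes were measured (at least 20 UMIs over both libraries): 4 were at least 2-fold higher in IMQ, 1 was at least 2-fold lower and 27 were neither. Its median log2 ratio was -0.02, beside 0.11 over all 10042 measured genes. Across all measured genes 1039 (10.3%) were at least 2-fold higher and 557 (5.55%) at least 2-fold lower, so the share of the lipid list past 2-fold was near the background. With scaling by the median ratio of abundant genes, the split was 830 higher and 686 lower. Lipid genes with wide expression were plentiful. Lpl, the lipoprotein lipase, had 607 CPM in IMQ and 423 CPM in Ctrl, with a UMI in 83.3% and 79.4% of gated cells. Apoe, an apolipoprotein, had 1111 and 1113 CPM, and Apod, a lipocalin, 2341 and 924 CPM in the same order. For Apod, 1 Ctrl cell held 22.5% of the UMIs.

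Markers of fibroblasts were present throughout: all 10 listed were measured, and Pdgfra stood at 208 CPM in IMQ gated fibroblasts and 232 CPM in Ctrl ones. Summed over the 10, they reached 9674 CPM in IMQ and 8649 CPM in Ctrl, against 11039 and 9107 CPM in the other fibroblasts. The 10 endothelial markers summed to 81.6 CPM in IMQ and 62.8 CPM in Ctrl, against 46.05 and 21.8 CPM in other fibroblasts. Plvap, a diaphragm protein of fenestrated vessels, held 127 of their 268 UMIs in IMQ and 97 of 123 in Ctrl, while Cldn5 was at 1 UMI and 0 UMIs and Cdh5 at 22 UMIs and 0 UMIs. Of the 5 measured, 3 were at least 2-fold higher in IMQ, with a median of 1.78, and 1 of the 5 ratios was a bound against a count of 0. A single IMQ cell held 86 of the 268 endothelial UMIs. The 10 pericyte markers summed to 538 CPM in IMQ and 405 CPM in Ctrl, against 298 and 586 CPM in other fibroblasts. Of the gated cells, 121 in IMQ and 74 in the shallower Ctrl library had at least 2 UMIs of the pericyte list, and 49 and 14 of the smooth muscle list. For the smooth muscle list 1 cell held 2300 of 5267 UMIs in IMQ, and 1 held 541 of 1045 in Ctrl. Transcripts of 4 genes of these lists lay almost wholly in a few cells. In each library 8 gated cells had at least 5 UMIs over Rgs5, Notch3, Myh11 and Higd1b, and they held 99.5% of these UMIs in IMQ and 96.2% in Ctrl. None of the 8 IMQ cells had Gdf10, nor had 5 of the 8 Ctrl cells. Rgs5, a pericyte regulator of G-protein signalling, had 1710 CPM in the IMQ cells with Vtn and no Gdf10 and no UMI in the 149 IMQ cells with Gdf10 alone, and in Ctrl 775 and 4.82 CPM. Further pericyte genes, the channel subunits Kcnj8 and Abcc9, were not limited to the Vtn cells: IMQ cells with Gdf10 alone had 15.6 and 21.0 CPM of Kcnj8 and Abcc9. Red cell genes (the haemoglobin genes Hbb-bs, Hbb-bt, Hba-a1 and Hba-a2, and Alas2) summed to 2998 CPM in IMQ and 2912 CPM in Ctrl. Of these, 1 cell in each library held 6544 of 9848 UMIs and 5652 of 5702 UMIs.

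Against the other fibroblasts of the same library, 313 of 13124 genes (2.38%) were at least 2-fold higher in gated fibroblasts in both libraries, and 295 (2.25%) were at least 2-fold lower. In IMQ alone 5.32% were higher and 7.73% lower, and in Ctrl 8.16% were higher and 6.05% lower. The Pi16 limit applies to the gated cells only. Against other fibroblasts held to the same Pi16 and Col11a1, Lrrc15 and Acan limits, 528 genes were higher and 289 lower in both libraries, and 262 and 187 of these were shared with the first comparison. No test of these differences is possible with 1 library a group, since cells of a library are not replicates.

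The leading higher genes spanned transcription factors, matrix proteins, enzymes and secreted factors. Among transcription factors, Nr2f2 (COUP-TFII, known for venous identity) stood at 96.5 CPM against 14.2 CPM in other fibroblasts of the IMQ library and at 84.8 against 10.8 CPM in the Ctrl library. Meox2, a homeobox factor of mesenchyme and vessels, stood at 151 against 19.6 CPM in IMQ and 71.5 against 12.2 CPM in Ctrl. Both were found with either gate gene. Nr2f2 stood at 87.5 CPM in IMQ cells with Gdf10 alone and 194 CPM in IMQ cells with Vtn and no Gdf10, and Meox2 at 151 and 114 CPM.

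Enzymes and matrix genes of the set followed the gate genes in different ways. Fmo2, a flavin monooxygenase and a marker of the F3-bearing stromal cells, stood at 197 against 42.8 CPM in IMQ and 105 against 19.4 CPM in Ctrl. It was highest with Gdf10: 274 CPM in IMQ cells with Gdf10 alone, against 14.02 CPM (6 UMIs) in IMQ cells with Vtn and no Gdf10. The gap was smaller in Ctrl, with 103 CPM with Gdf10 alone, 142 CPM with Gdf10 and Vtn and 51.3 CPM with Vtn and no Gdf10. Inmt was highest in cells with Vtn, at 524 CPM in IMQ and 758 CPM in Ctrl cells with Gdf10 and Vtn and 252 and 484 CPM in cells with Vtn and no Gdf10, against 159 and 289 CPM in cells with Gdf10 alone. It had no UMI in the 33 Esm1 cells of the IMQ library. Vit, vitrin of the matrix, stood at 94.4 against 9.13 CPM in IMQ and 84.8 against 18.1 CPM in Ctrl. Sparcl1, an antiadhesive matrix protein, stood at 179 against 56.7 CPM in IMQ and 191 against 41.8 CPM in Ctrl, and was highest in Vtn cells without Gdf10, at 526 CPM in IMQ and 650 CPM in Ctrl. There 1 cell held 34.2% of the IMQ UMIs and 35.1% of the Ctrl UMIs.

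F3, the initiator of clotting, stood at 305 against 108 CPM in IMQ and 79.2 against 28.7 CPM in Ctrl. In IMQ, F3 stood at 446 CPM with Gdf10 alone and 39.7 CPM with Vtn and no Gdf10, whereas Inmt was higher in the latter cells. Of the 6 genes listed as marking the F3-bearing stromal cells (F3, Clec11a, Fmo2, Vit, Mgp and Inmt), 5 were at least 2-fold higher in gated than in other fibroblasts in each library. The exception in IMQ was Mgp, a calcification inhibitor, at 862 against 1101 CPM, and in Ctrl Clec11a, a growth factor of bone and blood, at 108 against 91.7 CPM. Over all genes 5.32% were higher in IMQ and 8.16% in Ctrl. Other lists also held higher genes. Of 12 genes listed for fibroblasts around vessels, 5 in IMQ and 6 in Ctrl were higher, and 1 and 0 lower. Of 11 listed for adipocyte precursors, 4 and 7 were higher, and 1 and 0 lower. Of 8 listed for dermal papilla and sheath, 1 and 6 were higher, and 4 and 0 lower. F3 was also found in 53.3% of IMQ keratinocytes and 20.8% of Ctrl keratinocytes, whereas Fmo2 was found in 0.51% and 0%.

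Secreted factors and complement completed the set. Cxcl14 stood at 2696 against 597 CPM in IMQ and 456 against 49.2 CPM in Ctrl. Keratinocytes had it too: with cells thinned to 5000 UMIs, Cxcl14 was detected in 17.1% of IMQ and 33.0% of Ctrl keratinocytes. In gated fibroblasts at that depth the shares were 71.2% and 45.9%. Igf1, insulin-like growth factor 1, stood at 871 against 317 CPM in IMQ and 467 against 151 CPM in Ctrl. Of the complement list, 7 of 20 measured genes were at least 2-fold higher in gated fibroblasts in IMQ and 2 lower. In Ctrl 8 of 21 were higher and 3 lower. Over all genes 5.32% were higher and 7.73% lower in IMQ, and 8.16% and 6.05% in Ctrl. Among the higher complement genes was C2, a classical pathway protease, at 224 against 85.1 CPM in IMQ and 283 against 37.3 CPM in Ctrl. Vtn itself is on that list, and it chose the cells. Steap4, a metalloreductase, stood at 440 against 160 CPM in IMQ and 178 against 12.1 CPM in Ctrl. AW112010 stood at 156 against 53.0 CPM in IMQ and 94.98 against 22.2 CPM in Ctrl. With cells thinned to 5000 UMIs, Steap4 was detected in 70.1% of gated against 37.7% of other IMQ fibroblasts and in 49.5% against 4.46% of Ctrl ones. In keratinocytes at that depth it was detected in 11.99% of IMQ cells and 1.97% of Ctrl cells.

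**Figure D4:**
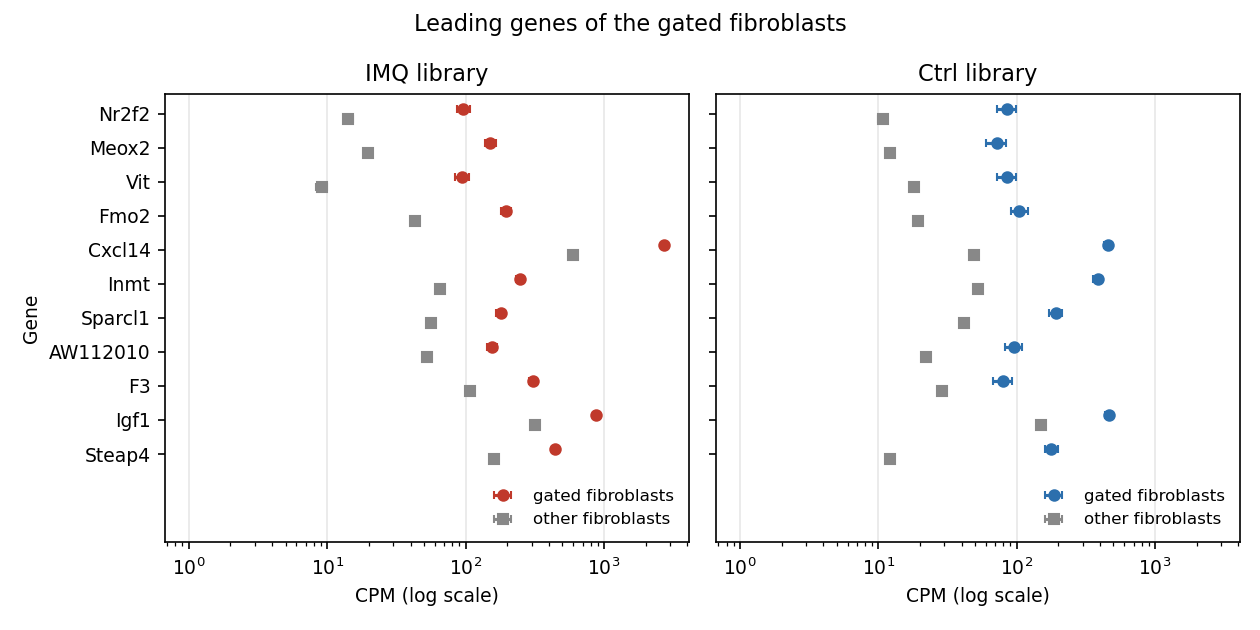
CPM on a log axis (x) of the leading genes (y) in gated fibroblasts (red circles in the IMQ panel, blue circles in the Ctrl panel) and in other fibroblasts of the same library (grey squares), with exact Poisson intervals. All are higher in gated fibroblasts in both panels, from 1.46 log2 units in the library with the smaller difference for F3, Igf1 and Steap4 up to 2.76 for Nr2f2.

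The 12 leading lower genes held several that the Pi16 limit bears on. Dpp4, a membrane peptidase that marks Pi16-bearing fibroblasts, stood at 27.4 CPM in gated against 167 CPM in other fibroblasts of IMQ and at 69.5 against 201 CPM in Ctrl. Against other fibroblasts under the same Pi16 limit its log2 difference was -1.16 in IMQ and -0.34 in Ctrl, and Anxa3, an annexin, turned to 0.0024 in IMQ and 1.10 in Ctrl. Pla1a, a phospholipase, turned to 1.48 in Ctrl. Lower under both comparators by at least 2-fold in both libraries were Coch, Ctla2a, Cyp26b1, C1qtnf3, Thbs2, Ddah1, Mfap4 and Slit2. Cyp26b1, which breaks down retinoic acid, stood at 8.83 against 88.1 CPM in IMQ and 57.7 against 228 CPM in Ctrl. Thbs2, a matrix thrombospondin, stood at 41.4 against 310 CPM in IMQ and 86.3 against 295 CPM in Ctrl. Coch, the matrix protein cochlin, stood at 0.61 against 212 CPM in IMQ and 12.3 against 51.2 CPM in Ctrl. Within gated fibroblasts of the IMQ library, 84.8% of the Ctla2a UMIs lay in 1 cell.

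Acute phase genes were among those higher in gated fibroblasts of the treated skin. Of the acute phase and antimicrobial list 9 of 15 measured genes were at least 2-fold higher in IMQ and 0 lower. The list's median log2 ratio was 1.31, beside 0.11 over all genes, and it was 0.59 with cells thinned to 5000 UMIs, 0.57 with at least 5 gate UMIs and 0.58 with the gate on Vtn alone. Saa3, serum amyloid A3, stood at 2369 CPM (2317 to 2422) in IMQ and 9.19 CPM (5.45 to 14.5) in Ctrl, a ratio of 258 (163 to 435). It was found in 128 of 282 IMQ cells and 2 of 248 Ctrl cells. Lcn2, the iron-sequestering lipocalin 2, stood at 213 CPM in IMQ and 13.3 CPM in Ctrl, with a UMI in 107 and 6 cells. Hp, haptoglobin, stood at 72.1 and 1.53 CPM, and Prg4, the lubricant lubricin, at 744 and 34.7 CPM in the same order. These genes stood lower in gated than in other fibroblasts of the IMQ library, where Saa3 reached 10561 CPM, Lcn2 952 CPM and Hp 441 CPM. Free RNA was estimated to give 97.8 CPM of Saa3 and 13.3 CPM of Lcn2 in IMQ gated fibroblasts. Markers of neutrophils moved the same way: the 6 genes summed to 61.2 CPM (201 UMIs) in IMQ and 1.02 CPM (2 UMIs) in Ctrl, against 50.6 and 1.23 CPM in other fibroblasts. Of the gated cells 22 in IMQ and 0 in Ctrl had at least 2 of these UMIs, and 1 IMQ cell held 85. Nearly all were S100a8 and S100a9, the calprotectin subunits, at 24.96 and 35.004 CPM in IMQ gated fibroblasts beside free RNA estimates of 44.5 and 56.2 CPM, while Mmp9 and Cxcr2 were at 0. Their part in the acute phase result was not tested.

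Of the list of chemokines other than neutrophil attractants 9 of 14 measured genes were at least 2-fold higher in IMQ and 0 lower, with a median of 1.54. With cells thinned to 5000 UMIs that median was 0.08. Cxcl13, which draws B cells, stood at 1361 CPM in IMQ and 109 CPM in Ctrl, with a UMI in 116 and 36 gated cells. Cxcl12, which binds Cxcr4 on leukocytes and progenitors, stood at 1636 and 418 CPM, against 1707 and 102 CPM in other fibroblasts. Cxcl14 had the levels given above, a ratio of 5.91 (5.52 to 6.34). Ccl4 and Cxcl9 also passed 2-fold, but 1 IMQ cell held 76.9% and 74.8% of their UMIs. Among neutrophil attractants 3 of 9 measured genes were higher and 0 lower. Cxcl1, a neutrophil chemokine, stood at 2311 CPM in IMQ and 1301 CPM in Ctrl, under 2-fold, and Il6 at 371 and 454 CPM. Il33, an alarmin, stood at 249 and 35.2 CPM.

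Matrix genes lay on both sides. Of 45 measured collagen and fibre genes 11 were at least 2-fold higher in IMQ and 8 lower, with a median of -0.05; 4 of the list are genes of the rule. On the higher side were elastic fibre genes: Eln, elastin, at 895 CPM in IMQ and 184 CPM in Ctrl, and Mfap4, a microfibril protein, at 442 and 84.8 CPM. Timp1, an inhibitor of matrix metalloproteinases, stood at 722 and 96.5 CPM, Serpina3n, a protease inhibitor of the acute phase, at 951 and 190 CPM, and Ctgf, a matricellular growth factor, at 177 and 13.3 CPM. On the lower side Fn1, fibronectin, stood at 594 CPM in IMQ and 1630 CPM in Ctrl, and Tgfbi, an adhesion protein induced by TGF-beta, at 87.7 and 468 CPM. Col1a1, a gene of the rule, stood at 10183 and 23755 CPM. Of the basement membrane list 1 of 20 genes was higher and 3 lower, with a median of -0.21. Col4a2, a chain of type IV collagen, was the higher one at 568 CPM in IMQ and 277 CPM in Ctrl, and its partner Col4a1 stood at 1021 and 556 CPM, under 2-fold. The lower ones were Smoc2, a calcium-binding matrix protein, at 108 CPM in IMQ and 291 CPM in Ctrl, and the type IV collagen chains Col4a5, at 8.83 and 29.6 CPM, and Col4a3, at 5.48 and 18.4 CPM.

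In the insulin-like growth factor list 2 of 14 measured genes were at least 2-fold higher in IMQ and 3 lower. Igfbp7, a binding protein of vessel walls, was found in all 282 IMQ cells and 238 of 248 Ctrl cells, at 4514 CPM in IMQ and 1562 CPM in Ctrl, against 1663 and 554 CPM in other fibroblasts. Igfbp4 stood at 1430 and 419 CPM, and Igfbp5 on the lower side at 355 and 933 CPM. In the interferon list 5 of 30 genes were higher and 2 lower, in the vascular growth list 3 of 33 higher and 7 lower, in the matrix enzyme list 7 of 35 higher and 4 lower, and in the complement list 2 of 14 higher and 0 lower. The highest of these 4 medians was 0.21, in the interferon list. Antigen presentation had 0 of 12 higher and 1 lower, and the NF-kB and IL-17 target list 0 of 36 higher and 2 lower. Dissociation stress genes had 1 of 25 higher and 0 lower, and hypoxia and glycolysis genes 1 of 25 higher and 3 lower. Beside these and the other lists stand the shares over all measured genes, 10.3% higher and 5.55% lower. Several of the lists in this paragraph lay near those shares.

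**Figure D5:**
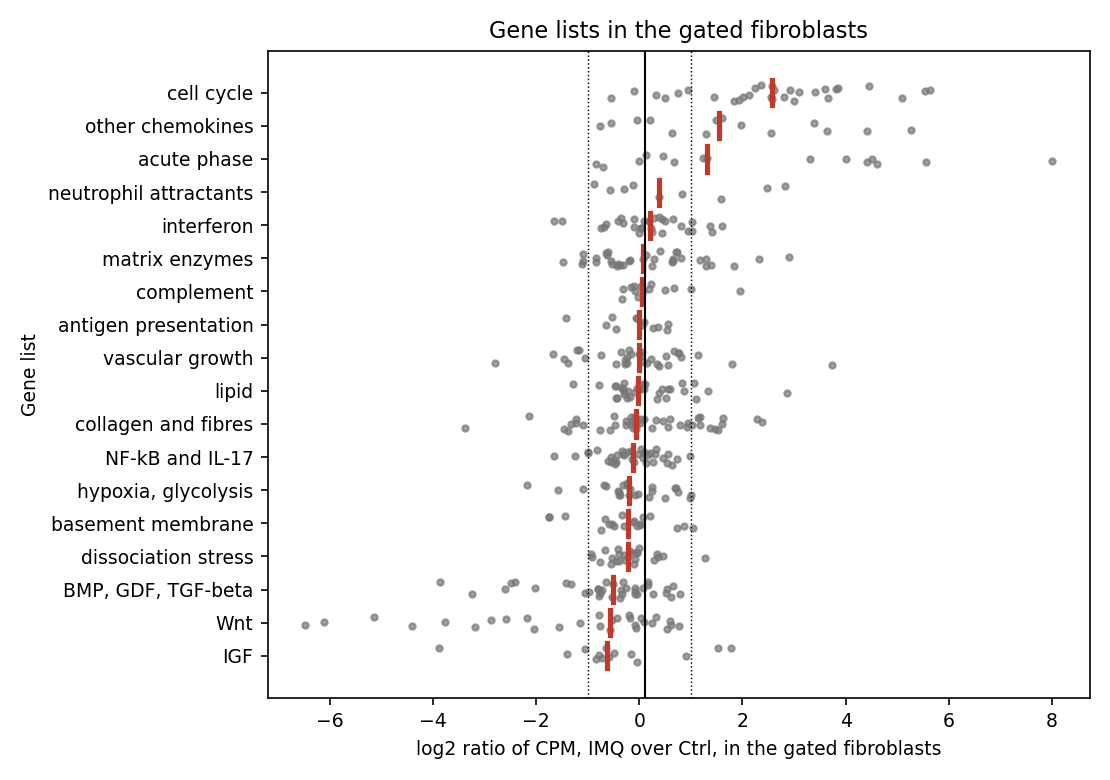
Log2 ratio of CPM, IMQ over Ctrl, in gated fibroblasts (x axis) for each measured gene (grey points, scattered within a row) of 18 gene lists (y axis), with list medians as red bars, the median of all genes (0.11) as a solid line and 2-fold as dotted lines. The cell cycle (2.58), other chemokine (1.54) and acute phase (1.31) lists have the highest medians, and the lipid list lies at -0.02.

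Cell cycle genes had the highest median, 2.58, with 24 of 30 measured genes at least 2-fold higher in IMQ and 0 lower. The median was 1.66 with cells thinned to 5000 UMIs and 1.45 over genes with at least 100 UMIs. For 9 of the 24 the Ctrl count was 0 and the ratio is a lower bound against a floor of 3 counts over the library's gated cells. Mki67, a marker of cycling cells, had 83 UMIs in IMQ and 1 in Ctrl, and Birc5, the mitotic protein survivin, 111 and 0. By a count chosen after the values were seen, 21 of 282 IMQ cells (7.45%, 4.67 to 11.2%) and 0 of 248 Ctrl cells had at least 5 UMIs over 10 mitotic genes, and the 21 cells held 627 of 683 such UMIs in the IMQ gated fibroblasts. Among other fibroblasts the counts were 102 of 3399 (3.001%) and 17 of 6815 (0.25%). Of the 21 cells, 5 carried Esm1. The Esm1 cells as a group had 114 CPM of Mki67, against 22.8 CPM in IMQ cells with Gdf10 alone, but 1 cell held 52.5% of those UMIs. They also had 343 CPM of Saa3, with 57.5% of the UMIs in 1 cell, against 2085 CPM. With the gate set on Gdf10 alone the cell cycle median was 2.69, and with the gate set on Vtn alone it was -0.34.

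Some of the genes lower in IMQ lay in few Ctrl cells. BMP, GDF and TGF-beta genes had 0 of 37 higher and 9 lower (median -0.51), and Wnt genes 0 of 29 higher and 12 lower (median -0.56). The 12 leading lower genes were Slc26a7, a, Runx3, Wif1, Prlr, Pappa2, Enpp2, Col23a1, Trps1, Bmp4, Rasd1 and Tgfbi. Several are known from the dermal papilla of the hair follicle, such as Wif1 (a Wnt inhibitor), Bmp4 (a ligand of that family) and a (agouti, the pigment switch). In the Ctrl library 9 gated fibroblasts with at least 5 UMIs over Enpp2, Trps1, Col23a1 and Bmp4 held 867 of 972 such UMIs (89.2%), and all 9 had Gdf10. In the IMQ library 4 cells met the same count and held 51 of 161 UMIs. Slc26a7, an anion transporter, had 312 UMIs in 8 Ctrl cells and 0 in IMQ, at least 174-fold lower in IMQ against a floor of 3 counts over the library's gated cells. Wif1 had 12 UMIs in 6 IMQ cells and 151 UMIs in 9 Ctrl cells. Without these papilla-gene cells 399 genes were still at least 2-fold lower in IMQ, against 557 with them, and the Wnt median was -0.15. The cells were picked by 4 of the 12 leading lower genes, so what those 4 did without them was set by the choice. Of the other leading genes, Pappa2 (2.08) and Rasd1 (0.10) were then higher in IMQ on the log2 scale. The 12 leading higher genes all stayed at least 2-fold higher without those cells. Of the 12 leading lower genes, 6 stayed at least 2-fold lower and 3 turned, among them Col23a1, which had helped to pick the cells. With cells thinned to 5000 UMIs, 2 of the 10 leading lower genes with a value stayed at least 2-fold lower and 6 turned.

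Across both libraries 23 barcodes were listed in common, and no gated fibroblast shared its barcode with a gated fibroblast of the other library. The free RNA estimate was 2.59% of UMIs in IMQ gated fibroblasts and 6.61% in Ctrl ones. Keratinocyte markers summed to 225 CPM in IMQ gated fibroblasts and 815 CPM in Ctrl ones, against 298 and 1413 CPM in other fibroblasts, and 1 Ctrl cell held 1250 of its 1596 UMIs. The part of free RNA in the differences between the libraries was not tested beyond the levels given with each gene.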

How the data were processed

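Digested skin was sequenced as single cells with the 10x Genomics 3' chemistry, 1 IMQ and 1 Ctrl library, per the labels' protocols. The authors deposited raw UMI counts per gene and barcode for 27998 genes. The matrices were written by Cell Ranger 5.0.0, per the file headers, whereas the submitters' processing notes name Cell Ranger 3.0.2, Seurat 2.0 and mm10; the annotation is not given in the sources used here. Barcodes had at least 500 UMIs; the libraries held 9414 and 10857 barcodes with median depths of 11423 (IMQ) and 9218 UMIs (Ctrl).

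UMIs of the chosen cells were summed per library and scaled by the summed total to CPM. A gene was measured with at least 20 UMIs. CPM have exact Poisson, shares Clopper-Pearson and ratios conditional binomial intervals, at 95%. A count of 0 was set to a floor of 3 counts. Free RNA was the median, over keratinocyte, leukocyte, red cell, melanocyte and Schwann markers, of the level in gated cells over that in the library. Keratinocytes for comparison had at least 2% of UMIs on Krt5 and Krt14. Doublets were kept; Scrublet (scanpy 1.11.5) served as an alternative. No clustering was done. Python 3.11.15, numpy 2.4.6 and scipy 1.17.1 were used, and the ratio step was tested on simulated data.

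Named genes had at least 100 UMIs, 50 CPM, a 2-fold ratio, 3 times the free RNA level and at most 25% of UMIs in 1 cell of the library where they were higher; the rank came from whichever interval bound lay closer to equality (between libraries) or from the smaller of both libraries' ratios (against other fibroblasts), 12 each way, plus genes of the rule and up to 4 members of each list with the most extreme ratios or highest CPM. Some genes that met this rule are not reported here. Genes picked from cell subgroups were chosen after their values were seen. Of 671 entries on 39 lists, 668 were found. Gene positions are from GENCODE M21, GRCm38. The members and gene lists were chosen with earlier results of these data known.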

Additional observations from a re-analysis of the deposited data

Results flagged for a closer look

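For 8 genes the difference between the libraries was at least 2-fold in gated fibroblasts and at least 2-fold the other way in other fibroblasts; with 1 library a group the difference between the populations was not tested. The log2 ratios, IMQ over Ctrl, were -4.33 in gated and 2.05 in other fibroblasts for Coch (cochlin) and -4.40 and 1.04 for Wif1, whose Ctrl UMIs lay in 9 gated cells. Tnc (tenascin C) had -1.33 and 4.22, and Thbs4 (thrombospondin 4) -1.38 and 2.84. Nov (a matricellular protein) had -1.16 and 1.56, Col4a3 (a type IV collagen chain) -1.75 and 1.08, and Edn1 (endothelin 1) -1.68 and 1.005. These rest on few transcripts in gated fibroblasts, with 14 UMIs in IMQ and 21 in Ctrl for Tnc, 9 and 14 for Thbs4, 9 and 12 for Nov, 18 and 36 for Col4a3, and 11 and 21 for Edn1. Coch rests on few as well: its IMQ level in gated fibroblasts, given above, lay under the floor of 3 counts, or 0.91 CPM. Krt79, a keratin of the upper hair follicle, had 1.47 and -1.44. It stood at 19.8 CPM in IMQ and 7.15 CPM in Ctrl gated fibroblasts, at or below the free RNA levels of 19.8 and 23.4 CPM, and 1 IMQ cell held 64.6% of its UMIs.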

How the results depend on the processing

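With 1 library a group no replicate could be left out and no paired analysis was possible because neither library has a partner. The log2 ratio of the share of fibroblast-gated cells was 1.13; it was 1.55 and 2.28 with at least 3 and 5 gate UMIs, 1.52 with cells thinned to 5000 UMIs and 1.80 with the gate on Vtn alone. Fabp4 (2.86, interval 2.28 to 3.49) was 1.05 at 5 gate UMIs, 1.62 thinned and 3.76 without Scrublet doublets. Fabp4 was 0.26 on Gdf10 alone, 4.21 on Vtn alone and 2.22 as a mean over cells. Without mural-gene cells, an alternative chosen after seeing the data, Fabp4 was 3.50 with a wider interval of 1.88 to 5.82. Scrublet marked 2 IMQ and 11 Ctrl gated cells. The gene counts were 648 higher when thinned, 309 lower on Vtn alone, 1559 higher and 1279 lower with no minimum, and 375 and 188 with at least 100 UMIs. Esm1 alone left 18 IMQ cells and 0 Ctrl cells, and Cfd (0 and 1 UMIs) gave no ratio.

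Among values at least 2-fold apart in the main comparison, directions turned as follows (log2, IMQ over Ctrl). Thinned: agouti (a) 0.30, Wif1 0.038, Prlr 0.79, Pappa2 0.89, Col23a1 1.30 and Rasd1 1.11, with 109 Ctrl cells remaining and Wif1 and Pappa2 set against a Ctrl count of 0. On Vtn alone: the cell cycle median -0.34, Wif1 0.0047, Prlr 1.54, Trps1 0.59 and Bmp4 1.005. Rgs5 (1.60) was -0.70 without cells with pericyte or endothelial markers, -3.44 on Gdf10 alone, -0.061 as a mean over cells and -0.72 without mural-gene cells, and Acta2 (1.96) was -1.88 on Gdf10 alone. Without papilla-gene cells, chosen after seeing the data, Pappa2 was 2.08, Col23a1 0.10 and Rasd1 0.10. Against other fibroblasts under the same Pi16 and Col11a1, Lrrc15 and Acan limits, Pla1a was 1.48 in Ctrl, Anxa3 0.0024 in IMQ and 1.10 in Ctrl, and Hp 2.49 in Ctrl, from 3 UMIs. Smaller values that changed sign included the interferon median (0.21, and -0.36 thinned), the insulin-like growth factor median (-0.62, and 0.15 on Vtn alone) and AW112010 (0.71, and -0.23 thinned). The causes of these turns were not tested. The lipid median (interval -0.29 to 0.44) and Car3 stayed within their intervals under every alternative that gave a value. For Car3 that interval was -1.91 to 2.28, from 7 IMQ and 4 Ctrl UMIs. It is too wide to show that Car3 was stable.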
